A study of Mus musculus with 17 samples.

Results

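The enzymes of cholesterol synthesis described here were 9 genes taken by name, Hmgcs1, Mvd, Idi1, Fdps, Fdft1, Sqle, Lss, Cyp51 and Dhcr7, of 21640 genes in the count table of the series. All 9 were present and all 9 passed the filter on low counts, which left 14927 genes to test. Bulk RNA-seq had been made from 17 mouse samples in 4 groups. Ai47 aSMCs were 6 samples of arteriolar smooth muscle cells sorted by EGFP from vessels of adult SMACreER:Ai47 mice, with cells bearing CD31 (endothelial) or CD45 (immune) taken out. Ai14 aSMCs were 2 samples, numbered 7 and 8 in the labels, sorted by tdTomato from SMACreER:Ai14 mice. Astrocytes were 3 samples sorted by tdTomato from hGFAPCreER:Ai14 mice, and cortex was 6 samples of cerebral cortex that the labels call WT homogenate. The paper's results describe the cortex control as part of the same dissociated cortices, kept back before sorting. Ai47 aSMC and cortex samples may thus share animals, although the labels name different genotypes. The sources used here do not say which samples match, and the main test leaves such a pairing out. SMACreER is a tamoxifen-inducible recombinase under the smooth muscle actin promoter and hGFAPCreER the same under the human GFAP promoter, so a reporter marks any cell that used that promoter when tamoxifen was given. The SMACreER:Ai47 mice were adults of 2 to 3 months when tamoxifen was given, a month before sorting, and the Ai47 aSMC and cortex samples are described as coming from 6 mice each. For Ai14 aSMCs and astrocytes nothing says which samples came from separate animals, so p-values there measure the spread between these samples.

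Cholesterol is built from acetyl-CoA through mevalonate, then isoprenoid units, then squalene, and last the sterol ring, which a series of enzymes trims to cholesterol. Plasma lipoproteins hardly cross the blood-brain barrier, so the brain makes its own cholesterol, in large part in oligodendrocytes for myelin and in astrocytes, which pass it to neurons. The genes of the pathway are transcribed together under the SREBP factors, which are held in the endoplasmic reticulum by INSIG proteins while membrane sterol is high and are released by SCAP and cut by site proteases when it is low.

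The libraries differed widely in depth and makeup. Totals were 41499087 to 53643624 counts in Ai47 aSMCs, 14870507 and 14979228 in Ai14 aSMCs, 4537137 to 7390630 in astrocytes and 5397905 to 7288036 in cortex. The share of mitochondrial genes was 0.214% to 0.559% in Ai47 aSMCs, 16.8% and 17.6% in Ai14 aSMCs, 10.7% to 12.5% in astrocytes and 35.7% to 72.9% in cortex. Levels below are CPM, that is counts scaled to a common library size, after TMM, a scaling that sets a factor for each library from the bulk of its genes. These factors were 0.423 to 0.551 in Ai47 aSMCs, 2.21 in both Ai14 aSMC libraries, 1.52 to 2.68 in astrocytes and 0.697 to 1.87 in cortex. The 8 smooth muscle markers summed to 5897 ± 598 CPM in Ai47 aSMCs (SD, n = 6), to 8037.7 and 8641 CPM in Ai14 aSMCs and to 95.1 ± 41.0 CPM in cortex (SD, n = 6). Acta2 and Myh11 made up most of these sums in aSMCs, with means of 3266 and 2176 CPM in Ai47 and 2624 and 4116 CPM in Ai14. All 8 were higher than in cortex in both aSMC groups. In Ai47 against Ai14 aSMCs 3 of the 8 were lower and 0 were higher, against 16% and 9.55% of all genes. The label of the astrocyte samples was met only in part. The 9 astrocyte markers summed to 1465 ± 320 CPM there (SD, n = 3), below the 10284 ± 5406 CPM of cortex (SD, n = 6), of which the glutamate transporter gene Slc1a2 made up 9206 CPM. Against cortex 1 of the 9 was higher in astrocytes (Gja1), 2 were lower (Slc1a2 and Gjb6) and 6 did not pass, and Gjb6 had 0 counts in all 3 astrocyte libraries. Gfap had 25.2 to 159.8 CPM and Aqp4 459.7 to 563.9 CPM in astrocytes, against 12.1 to 50.4 CPM and 19.6 to 136.1 CPM in cortex. Fewer cells of a type and less RNA per cell cannot be told apart in bulk samples.

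Each pair of groups was compared with edgeR's quasi-likelihood test in 1 fit of the 17 libraries, and a gene was called at an adjusted p (Benjamini-Hochberg, over 14927 genes) under 0.05. Every comparison with cortex shares the 6 cortex libraries, and every comparison of the same group shares that group's libraries. In Ai47 aSMCs against cortex 1 of the 9 genes was higher (Sqle) and 1 was lower (Fdft1), against 24.1% of all genes tested that were called higher and 26.5% called lower. The median log2 fold change was -1.57 over the 9 genes and -0.16 over all genes. In Ai14 aSMCs against cortex 0 of the 9 were called in either direction, against 3.97% of all genes called higher and 2% called lower. Hmgcs1, at a lower level, was the 1 gene with an unadjusted p under 0.05. DESeq2 called 2 lower (Hmgcs1 and Mvd) and 0 higher, against 11.2% and 3.53% of all genes. In astrocytes against cortex 1 was higher (Sqle) and 2 were lower (Hmgcs1 and Mvd), against 14.6% of all genes called higher and 19.8% called lower.

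Between the sorted groups, Ai47 aSMCs against Ai14 aSMCs had 1 gene higher (Sqle) and 0 lower, against 9.55% of all genes called higher and 16% called lower. By unadjusted p under 0.05, 3 were higher (Hmgcs1, Sqle and Cyp51) and 1 was lower (Fdft1). The shares of all genes given throughout are for adjusted p, and none is given for the looser unadjusted threshold. DESeq2 called 4 higher and 1 lower, against 17.9% and 13.5% of all genes. Ai47 aSMCs against astrocytes had 3 higher (Hmgcs1, Mvd and Cyp51) and 2 lower (Fdft1 and Dhcr7), against 26.1% of all genes called higher and 23.8% called lower. Ai14 aSMCs against astrocytes had 0 higher and 1 lower (Sqle), against 13.6% of all genes called higher and 3.56% called lower, and 0 had an unadjusted p under 0.05 in the higher direction. In none of the 6 comparisons did more than 3 of the 9 genes pass in 1 direction. Over all genes the direction of the calls depended on the scaling. In Ai47 aSMCs against cortex 47.7% of the calls were higher with TMM, 26.8% with library totals alone and 14.5% with totals without mitochondrial genes. In Ai47 aSMCs the same 3 scalings gave 37.3%, 7.5% and 6.7% against Ai14 aSMCs, and 52.3%, 22.4% and 21.3% against astrocytes. In Ai14 aSMCs against cortex TMM gave 66.6%, DESeq2 size factors 49.6% and library totals 90.3%, and against astrocytes TMM gave 79.2% and DESeq2 size factors 66.8%. In astrocytes against cortex TMM gave 42.4% and library totals 60.8%. The median log2 fold change over all genes in Ai47 aSMCs against cortex was -0.16 with TMM, -1.50 with library totals and -2.64 with totals without mitochondrial genes, and the fold changes below are relative to the TMM value.

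**Figure D1:**
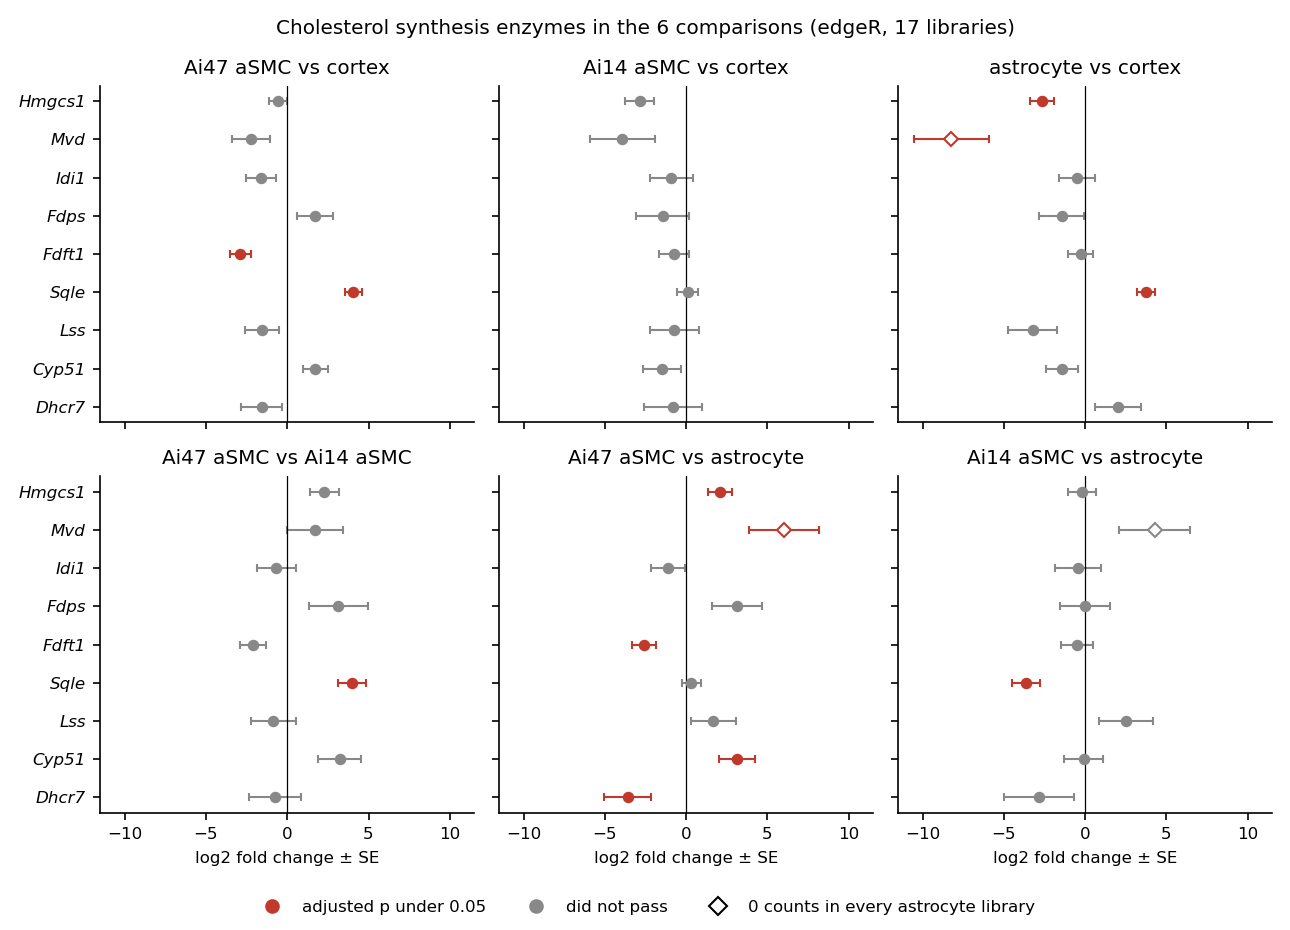
Log2 fold change of each of the 9 genes in the 6 comparisons, the group named first over the group named second, with the standard error from edgeR as the bar (log2 axis); red points passed the test, grey points did not, and open diamonds mark Mvd, whose fitted value has no bound because the astrocyte libraries held 0 counts. Sqle is the only gene called in 4 of the 6 comparisons, and in none of the panels do all 9 genes lie on 1 side of zero.

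Hmgcs1 encodes the synthase that makes HMG-CoA, the precursor of mevalonate. The gene lies at chr13:119690379-119708260 on the plus strand of GRCm38 (coordinates here are from GENCODE M21). Its level was 27.4 CPM at the lowest, 61.4 at the median and 98.9 at the highest in Ai47 aSMCs, 12.7 and 12.5 CPM in Ai14 aSMCs, 17.04, 4.31 and 22.1 CPM in astrocytes, and 30.7, 88.0 and 159.4 CPM (lowest, median, highest) in cortex. The Ai14 aSMC and astrocyte libraries lay below every cortex and every Ai47 aSMC library, while the ranges of Ai47 aSMCs and cortex overlapped. Hmgcs1 was lower in astrocytes than in cortex (log2 fold change -2.66 ± 0.75 SE, adjusted p = 0.0103) and higher in Ai47 aSMCs than in astrocytes (2.08 ± 0.73, adjusted p = 0.0222). In Ai14 aSMCs against cortex it had a log2 fold change of -2.87 ± 0.91 and missed the threshold (adjusted p = 0.0665, 0.000125 to 0.405 over the alternatives), and DESeq2 put it below the threshold. In Ai47 aSMCs against Ai14 aSMCs it had 2.29 and also missed it (adjusted p = 0.0591), and was called higher in 21 of 27 alternatives, 15 of 17 leave-one-out fits among them (0.00102 to 0.980 over all). The cortex level was itself split, since replicates 1 to 3 had 112.1 to 159.4 CPM while replicates 4 to 6 had 30.7 to 63.9 CPM. With cortex replicates 4 to 6 alone the astrocyte difference was no longer called (log2 fold change -1.52, adjusted p = 0.154), nor was it with library totals alone (-1.87, adjusted p = 0.0981, 0.000135 to 0.154 over the alternatives). The call against astrocytes in Ai47 aSMCs was lost with the 2 scalings by library totals, where its direction turned (-0.31 and -0.48), and with the Ai47 aSMC columns as 1 library (adjusted p = 0.142, 0.00205 to 0.761 over the alternatives).

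Mvd, mevalonate diphosphate decarboxylase, makes the isoprenoid building block isopentenyl diphosphate. It lies at chr8:122433601-122443422 on the minus strand. It held 10 to 13 raw counts in each Ai47 aSMC library (0.364 to 0.741 CPM), 7 and 2 counts in Ai14 aSMCs (0.213 and 0.0606 CPM), 0 counts in all 3 astrocyte libraries, and 0 to 52 counts in cortex (0 to 5.93 CPM, with 2 of the 6 libraries at 0). Against a floor of 3 counts over the astrocyte group (0.0782 CPM), Mvd was at least 28.1-fold lower in astrocytes than in cortex, and the test called it (adjusted p = 0.0105). That limit was 18.6-fold without cortex replicate 1 and 13.6-fold without astrocyte replicate 3. By the same floor Ai47 aSMCs were at least 5.98-fold higher than astrocytes, or 2.89-fold without astrocyte replicate 3. These limits hold only on the TMM scale, whose factors were 0.423 to 0.551 in Ai47 aSMCs and 1.52 to 2.68 in astrocytes. Limits on other scales were not computed. Mvd could be tested in 26 alternatives here, since the filter left it out of others, such as the fit of these 2 groups alone. The main test called it higher in Ai47 aSMCs than in astrocytes (adjusted p = 0.0265). That call was lost without astrocyte replicate 1 (adjusted p = 0.0532) and without replicate 3 (0.0637), and also with library totals (0.119), with totals without mitochondrial genes (0.114) and with the Ai47 aSMC columns as 1 library (0.171), within 0.0116 to 0.171 over all alternatives. The 2 cortex libraries at 0 allow at most 0.374 and 0.593 CPM, so they overlap with the astrocyte libraries.

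Hmgcs1, Mvd and Cyp51 were the genes called higher together in Ai47 aSMCs against astrocytes, and their promoters are shown for that reason. The windows run from 250 bases before to 50 bases after the RefSeq start site (RefSeq, GRCm38.p6) and were found for 6 of the 9 genes, Hmgcs1, Mvd, Idi1, Lss, Cyp51 and Dhcr7. Capitals mark TCACNCCAC, a sterol regulatory element, and CCAAT, the site of NF-Y, each searched on both strands. Only these exact strings were searched, so other forms of either element would not be marked. The windows are chr13:119690101-119690400 (plus) for Hmgcs1, chr8:122443373-122443672 (minus) for Mvd and chr5:4104648-4104947 (minus) for Cyp51, each printed 5′ to 3′ on the strand of its gene.
Hmgcs1: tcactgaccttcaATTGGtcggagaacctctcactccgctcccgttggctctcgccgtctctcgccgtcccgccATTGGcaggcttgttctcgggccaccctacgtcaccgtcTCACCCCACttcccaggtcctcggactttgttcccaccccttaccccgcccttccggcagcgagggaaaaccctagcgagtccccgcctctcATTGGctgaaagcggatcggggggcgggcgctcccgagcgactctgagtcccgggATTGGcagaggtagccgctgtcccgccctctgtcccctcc
Mvd: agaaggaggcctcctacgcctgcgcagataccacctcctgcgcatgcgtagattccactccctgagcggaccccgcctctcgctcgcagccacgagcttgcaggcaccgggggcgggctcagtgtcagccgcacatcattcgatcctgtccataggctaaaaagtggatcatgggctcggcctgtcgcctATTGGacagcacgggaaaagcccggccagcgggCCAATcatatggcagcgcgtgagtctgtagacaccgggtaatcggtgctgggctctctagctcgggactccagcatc
Cyp51: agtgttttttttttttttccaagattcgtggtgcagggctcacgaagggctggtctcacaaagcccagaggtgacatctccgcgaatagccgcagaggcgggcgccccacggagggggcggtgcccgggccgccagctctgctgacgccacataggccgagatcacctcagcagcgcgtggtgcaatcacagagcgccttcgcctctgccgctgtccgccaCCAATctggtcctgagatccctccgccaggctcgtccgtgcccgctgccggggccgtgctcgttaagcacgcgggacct
The 6 genes have 8 windows, since Dhcr7 has 3. TCACNCCAC occurred in 1 of the 8, that of Hmgcs1, with its first base 137 bases before the start site, and in 1.24% of 32851 windows of the same length. CCAAT occurred in 6 of the 8 windows (1 of the 3 of Dhcr7), where 37.4% of all windows hold it, and GGGCGG, the GC box (not in capitals), in 7 of the 8, where 35.7% of all windows hold it. CCAAT and TCACNCCAC did not share bases in these windows.

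**Figure D2:**
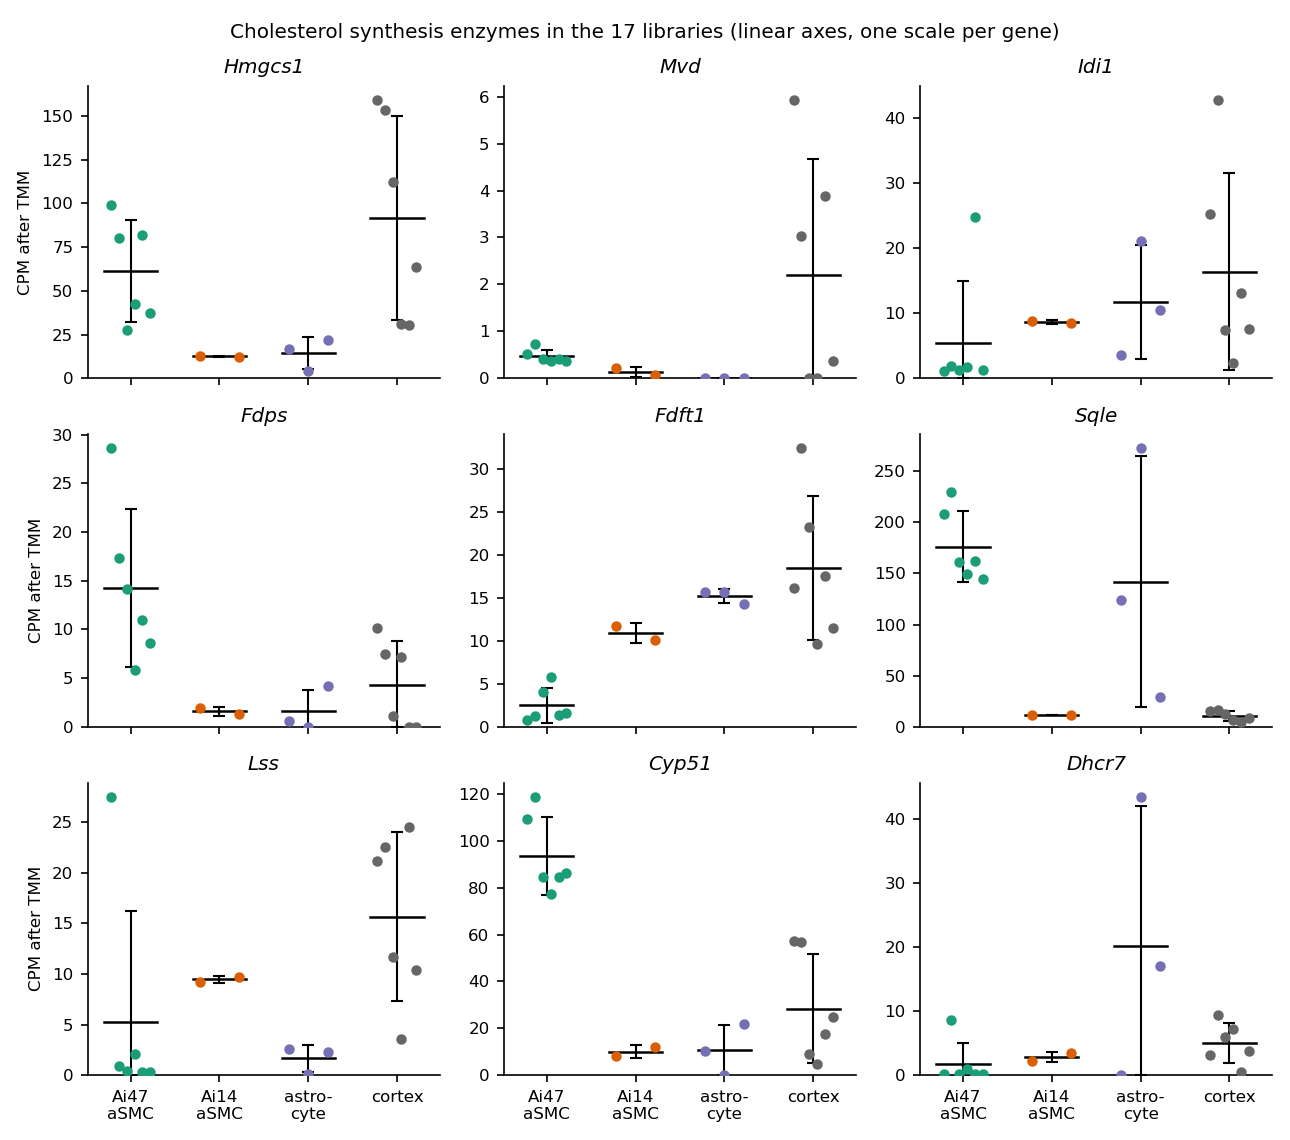
CPM after TMM of each gene (1 panel per gene, linear axis from 0, its own scale), with 1 point per library, in Ai47 aSMCs (6), Ai14 aSMCs (2), astrocytes (3) and cortex (6); horizontal lines are group means and vertical bars 1 SD, drawn no lower than 0. Sqle and Cyp51 stand above cortex in all 6 Ai47 aSMC libraries, Fdft1 stands below it, and Idi1, Lss and Dhcr7 each have 1 Ai47 aSMC library far above the other 5.

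Idi1 encodes the isomerase that turns isopentenyl diphosphate into its reactive partner, and lies at chr13:8885501-8892451 on the plus strand. Its level was 1.21 CPM at the lowest, 1.56 at the median and 24.9 at the highest in Ai47 aSMCs, 8.89 and 8.46 CPM in Ai14 aSMCs, 3.65, 21.1 and 10.5 CPM in astrocytes, and 2.37, 10.4 and 42.8 CPM (lowest, median, highest) in cortex. In Ai47 aSMCs 5 of the 6 libraries were between 1.21 and 1.94 CPM and replicate 5 alone was within the range of cortex. The log2 fold change of Ai47 aSMCs against cortex was -1.61 ± 0.91 SE (adjusted p = 0.145), and without replicate 5 it was -3.17 and was called (adjusted p = 0.0032, 0.00118 to 0.752 over the alternatives). Against astrocytes, too, Idi1 in Ai47 aSMCs was called lower only without that library among the leave-one-out fits (log2 fold change -2.58, adjusted p = 0.0194, against -1.12 and 0.389 with it, 0.00934 to 0.950 over the alternatives). Ai14 aSMCs and astrocytes did not pass against cortex, with log2 fold changes of -0.92 ± 1.32 and -0.49 ± 1.11.

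Fdps makes farnesyl diphosphate, from which the sterol branch and the branches to dolichol, ubiquinone and prenylated proteins part. The gene lies at chr3:89093588-89101959 on the minus strand and shares bases with the predicted gene Gm43738 on the same strand, which averaged 0 to 0.145 CPM in the 4 groups. Fdps had 5.82 CPM at the lowest, 12.6 at the median and 28.6 at the highest in Ai47 aSMCs, 1.92 and 1.27 CPM in Ai14 aSMCs, 0.562, 0 and 4.14 CPM in astrocytes, and 0, 4.12 and 10.1 CPM in cortex, where 2 libraries had 0 counts. All 6 Ai47 aSMC libraries were above the Ai14 aSMC and astrocyte libraries, and overlapped with cortex. None of the 6 comparisons passed, the largest being Ai47 aSMCs against Ai14 aSMCs (log2 fold change 3.15 ± 1.84 SE, adjusted p = 0.225) and against astrocytes (3.15 ± 1.53, adjusted p = 0.0925). The astrocyte comparison was called in 5 of 28 alternatives, among them DESeq2 (adjusted p = 0.0117) and the fit without astrocyte replicate 3 (log2 fold change 5.91, adjusted p = 0.0221), with 0.0117 to 0.788 over all. The Ai14 aSMC comparison was called by DESeq2 and in the fit of the 2 groups alone (adjusted p = 0.0293 and 0.00996, up to 0.766 over the alternatives).

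Fdft1, squalene synthase, joins farnesyl units in the first step committed to sterols. It lies at chr14:63145150-63179578 on the minus strand, where it overlaps with the protease gene Ctsb on the plus strand. The sources used here do not give the strand setting of the counting, so reads from the overlap cannot be assigned; Ctsb averaged 22.7 CPM in Ai47 aSMCs, 42.4 in Ai14 aSMCs, 87.9 in astrocytes and 79.8 in cortex. Fdft1 had 0.786 CPM at the lowest, 1.47 at the median and 5.82 at the highest in Ai47 aSMCs, 11.7 and 10.1 CPM in Ai14 aSMCs, 15.7, 15.7 and 14.2 CPM in astrocytes, and 9.69, 16.9 and 32.5 CPM in cortex. Every Ai47 aSMC library lay below every library of the other 3 groups. Fdft1 was lower in Ai47 aSMCs than in cortex (log2 fold change -2.89 ± 0.66 SE, adjusted p = 0.00112) and than in astrocytes (-2.62 ± 0.73, adjusted p = 0.00578, 1.04e-05 to 0.253 over the alternatives, the highest with the Ai47 aSMC columns as 1 library), and against Ai14 aSMCs it missed the threshold (-2.13 ± 0.80, adjusted p = 0.0540, 0.00013 to 0.619 over the alternatives). The call against cortex held in 17 of 17 leave-one-out fits and 10 of 11 other settings, and was lost when the 6 Ai47 aSMC columns were counted as 1 library (log2 fold change -2.79, adjusted p = 0.204, the highest, where the lowest was 5.36e-09). In that setting the lone library is assumed to vary like the other groups. Ai14 aSMCs and astrocytes had log2 fold changes against cortex of -0.76 ± 0.91 and -0.28 ± 0.76 and did not pass.

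Sqle, squalene epoxidase, inserts the oxygen at which the ring later closes and is a slow, regulated step of the pathway. It lies at chr15:59315077-59331192 on the plus strand with no annotated overlap. Its level was 144.7 CPM at the lowest, 162.0 at the median and 229.6 at the highest in Ai47 aSMCs, 11.2 and 11.3 CPM in Ai14 aSMCs, 124.4, 272.7 and 28.9 CPM in astrocytes, and 4.91, 10.2 and 16.5 CPM in cortex. All Ai47 aSMC and all astrocyte libraries were above all cortex and Ai14 aSMC libraries, the 3 astrocyte libraries differed among themselves more than the 6 of Ai47 aSMCs did, and Ai14 aSMCs lay within the range of cortex. Sqle was higher than in cortex in Ai47 aSMCs (log2 fold change 4.05 ± 0.53 SE, adjusted p = 2.56e-06) and in astrocytes (3.74 ± 0.56, adjusted p = 7.65e-05), and both calls held under all 28 alternatives that were run. Without replicate 2 the astrocyte value was 2.71. The size moved with the scaling: with library totals without mitochondrial genes the log2 fold change of Ai47 aSMCs was 1.52, the smallest. Sqle was higher in Ai47 aSMCs than in Ai14 aSMCs (3.97 ± 0.85, adjusted p = 0.00195), a call that held in 17 of 17 leave-one-out fits and was lost with library totals alone, with totals without mitochondrial genes and with the Ai47 aSMC columns as 1 library (adjusted p = 0.101, 0.0784 and 0.0659, from 2.23e-08 in the others). It was lower in Ai14 aSMCs than in astrocytes (-3.66 ± 0.86, adjusted p = 0.00626), a call that was lost without Ai14 aSMC replicate 7 or 8 (log2 fold changes -3.78 and -3.85, adjusted p = 0.0637 and 0.0647, 1.11e-06 to 0.142 over the alternatives). Each of those fits leaves 1 Ai14 aSMC library, which is assumed to vary like the other groups. Ai47 aSMCs and astrocytes did not pass against each other (0.31 ± 0.57), but without astrocyte replicate 2, the highest of the 3, Ai47 aSMCs were higher (log2 fold change 1.53, adjusted p = 0.0339, 0.00575 to 0.970 over the alternatives). That direction turned to -1.66 and -1.84 with the 2 scalings by library totals.

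Lss, lanosterol synthase, closes the sterol ring, and lies at chr10:76531588-76557138 on the plus strand. It had 0.255 CPM at the lowest, 0.679 at the median and 27.6 at the highest in Ai47 aSMCs, 9.25 and 9.73 CPM in Ai14 aSMCs, 2.53, 0.127 and 2.27 CPM in astrocytes, and 3.56, 16.5 and 24.5 CPM in cortex. In Ai47 aSMCs 5 of the 6 libraries were at 0.255 to 2.10 CPM, below every cortex and Ai14 aSMC library, and replicate 1 alone was above them all. The astrocyte libraries also lay below every cortex library. No comparison passed: the log2 fold change against cortex was -1.57 ± 1.05 SE in Ai47 aSMCs (adjusted p = 0.222) and -3.24 ± 1.50 in astrocytes (adjusted p = 0.0992). Without Ai47 aSMC replicate 1 the first was -4.09 (adjusted p = 0.00128, the lowest of the alternatives, up to 0.516), and Lss was then also called lower in Ai47 aSMCs than in Ai14 aSMCs (-3.08, adjusted p = 0.0383, against -0.85 and 0.704 with it, 0.0328 to 1 over the alternatives). The astrocyte difference was called in 4 of 28 alternatives, which were DESeq2 (-3.38, adjusted p = 0.0188), the fit of the 2 groups alone (0.0489), the Ai47 aSMC columns as 1 library (0.0284) and the fit without Ai47 aSMC replicate 1 (0.0226), up to 0.236 over all.

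Cyp51, lanosterol demethylase, is the first of the enzymes that trim the ring. It lies at chr5:4081145-4104746 on the minus strand and overlaps with the anchoring protein gene Akap9 on the plus strand, so here too reads from the overlap cannot be assigned. Akap9 averaged 21.6 CPM in Ai47 aSMCs, 125.8 in Ai14 aSMCs, 5.64 in astrocytes and 41.7 in cortex. Cyp51 had 77.5 CPM at the lowest, 85.7 at the median and 119.0 at the highest in Ai47 aSMCs, 7.94 and 12.1 CPM in Ai14 aSMCs, 10.1, 0 and 21.8 CPM in astrocytes, and 4.75, 21.3 and 57.5 CPM in cortex. Every Ai47 aSMC library was above every library of the other 3 groups, which overlapped. Cyp51 was higher in Ai47 aSMCs than in astrocytes (log2 fold change 3.13 ± 1.09 SE, adjusted p = 0.0216), a call lost in 4 of 28 alternatives: the 2 scalings by library totals, the fit of the 2 groups alone and the Ai47 aSMC columns as 1 library (0.00062 to 0.676 over all). Against cortex the log2 fold change was 1.72 ± 0.77 and missed the threshold (adjusted p = 0.0686), and it passed in 15 of 28 alternatives, among them DESeq2 and the fit of the 2 groups alone (adjusted p = 0.0297 and 0.0039, 0.00291 to 0.932 over all). With totals without mitochondrial genes its direction turned (-0.81). Against Ai14 aSMCs it was 3.22 ± 1.31 (adjusted p = 0.0760), and passed in 9 of 27 alternatives (6.58e-05 to 0.619).

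Dhcr7 carries out the last reduction on one of the routes to cholesterol, and lies at chr7:143823145-143848410 on the plus strand with no annotated overlap. It had 0.0809 CPM at the lowest, 0.151 at the median and 8.55 at the highest in Ai47 aSMCs, 2.22 and 3.39 CPM in Ai14 aSMCs, 0, 43.5 and 16.98 CPM in astrocytes, and 0.517, 4.89 and 9.39 CPM in cortex. In Ai47 aSMCs 5 of the 6 libraries held 0.0809 to 0.995 CPM and replicate 2 was within the range of cortex, and among astrocytes 1 library had 0 counts while the other 2 were above every cortex library. Dhcr7 was called lower in Ai47 aSMCs than in astrocytes (log2 fold change -3.60 ± 1.44 SE, adjusted p = 0.0437), a call that held in 2 of 17 leave-one-out fits and 4 of 11 other settings (adjusted p 0.00285 to 0.340). Against cortex Ai47 aSMCs had -1.59 ± 1.23 (adjusted p = 0.297), and without replicate 2 they had -3.82 (adjusted p = 0.0151, 0.00997 to 0.633 over the alternatives).

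The raw counts of some of the 9 genes hardly varied over the 6 Ai47 aSMC columns although the library totals differed. Sqle held 3977 to 4064 counts there, so that the variance over the mean was 0.321, where counting alone at equal depth gives about 1. Mvd had 10 to 13 counts (variance over the mean 0.143) and Cyp51 2089 to 2379 (6.36). The other 6 genes had values of 50.4 to 428.9 in the same columns. Of 7997 genes with at least 10 counts in every Ai47 aSMC column, 91 (1.14%) had a highest count within 1.05 times the lowest. Among cortex libraries 0 of 5725 such genes did, and Sqle in cortex had 19 to 207 counts. Among the 3 astrocyte libraries 1 of 4508 did. In Ai14 aSMCs, where only 2 libraries are compared, 1457 of 12764 (11.4%) did, with Hmgcs1, Idi1 and Sqle among them. The 1.05 ratio was chosen after the counts had been seen, those of the 6 Ai47 aSMC columns among them. Whether these columns share reads was not tested. With them counted as 1 library, only Sqle against cortex remained of the calls that rest on Ai47 aSMCs. Fewer of all genes tested were called in that setting too, so the loss is not particular to the 9 genes.

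**Figure D3:**
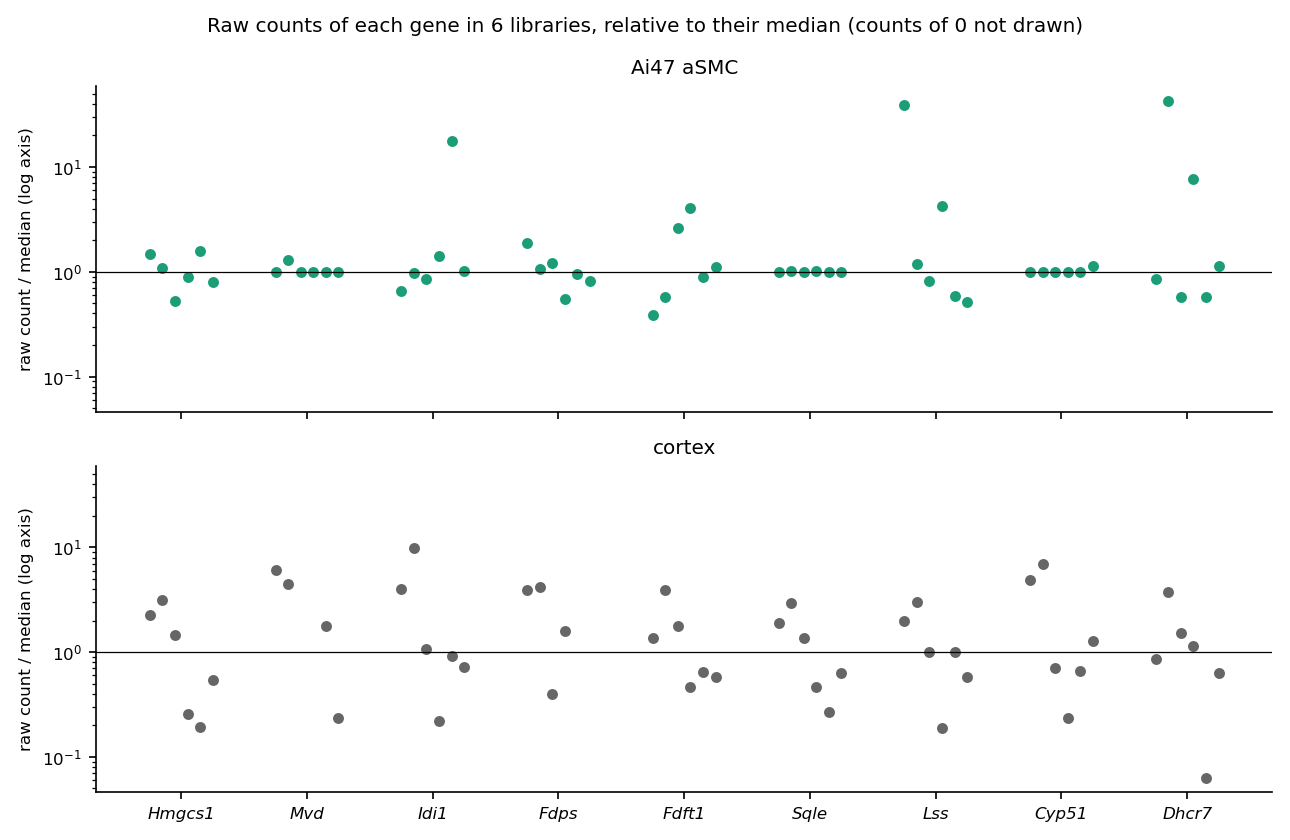
Raw counts of the 9 genes in the 6 Ai47 aSMC libraries (upper panel) and the 6 cortex libraries (lower panel), each divided by the median of its gene and panel (log axis; 1 point per library, counts of 0 not drawn). In Ai47 aSMCs the points of Sqle, with 3977 to 4064 counts, lie at 1 and those of Mvd and Cyp51 close to it, while Idi1, Lss and Dhcr7 each have 1 library far above; in cortex all 9 genes are spread.

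Along the pathway, Sqle had the highest mean level per length in Ai47 aSMCs and astrocytes, and Hmgcs1 in Ai14 aSMCs and cortex. Sqle led in Ai47 aSMCs, with a mean of 31.8 CPM per kb of exon, before Cyp51 with 21.2 and Hmgcs1 with 13.4, and the other 6 genes were at 0.252 to 3.38 CPM per kb. The means of Idi1, Lss and Dhcr7 rested on 1 library each, without which they were 0.427, 0.0748 and 0.0502 CPM per kb. In Ai14 aSMCs 5 genes lay close together at 2.03 to 2.73 CPM per kb, Hmgcs1, Fdft1, Idi1, Cyp51 and Sqle. Astrocytes had 25.6 CPM per kb of Sqle and at most 3.605 (Fdft1) of any other, and without replicate 2 Sqle was at 13.8. In cortex Hmgcs1 led with 20.0 CPM per kb, followed by Cyp51 with 6.44, and Sqle had 1.91. As a share of the summed CPM of the 9 genes, Sqle made up 43.8% to 54.9% in Ai47 aSMCs, 16.4% and 16.9% in Ai14 aSMCs, 23.9% to 76.3% in astrocytes and 4.35% to 9.02% in cortex. Hmgcs1 made up 9.32% to 22.3% in Ai47 aSMCs and 27.2% to 61.3% in cortex. The sum itself was 361 ± 88.7 CPM in Ai47 aSMCs (SD, n = 6), 66.0 and 68.9 CPM in Ai14 aSMCs, 217 ± 124 CPM in astrocytes (SD, n = 3) and 193 ± 112 CPM in cortex (SD, n = 6). Without Sqle it was 185 ± 57.7 CPM in Ai47 aSMCs and 182 ± 107 CPM in cortex, means that differed by less than their spread. It was then 54.8 and 57.6 CPM in Ai14 aSMCs and 75.4 ± 22.6 CPM in astrocytes. Without Hmgcs1 and Cyp51 as well, it was 29.5 ± 17.2 CPM in Ai47 aSMCs and 62.1 ± 33.2 CPM in cortex. This last sum was 33.0 and 34.2 CPM in Ai14 aSMCs and 50.3 ± 29.0 CPM in astrocytes. The 3 genes left out of it had the highest levels per length in Ai47 aSMCs.

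Cell types other than those sorted differed between the groups beside these results. The 8 oligodendrocyte markers summed to 7.84 to 65.9 CPM in Ai47 aSMCs, 175 and 252 CPM in Ai14 aSMCs, 96.5 to 279.5 CPM in astrocytes and 3761 to 11848 CPM in cortex, and 7 of the 8 were lower in Ai47 aSMCs than in cortex. The 5 fibroblast markers summed to 1531 to 2365 CPM in Ai47 aSMCs, with Pdgfra at 0 in all 6 libraries, 78.7 and 122 CPM in Ai14 aSMCs, 0.960 to 7.58 CPM in astrocytes and 14.6 to 37.9 CPM in cortex. In Ai47 aSMCs Col1a1 averaged 1739 CPM and Col1a2 114 CPM, against 1.31 and 9.35 CPM in cortex. Dcn averaged 4.13 CPM and Lum 0.00873 CPM there, against 4.16 and 0.726 CPM in cortex. Of the 4 tested fibroblast genes 2 were higher and 1 was lower in Ai47 aSMCs than in cortex. Group means of the summed markers were, in the order Ai47 aSMCs, Ai14 aSMCs, astrocytes and cortex, 4115, 8896, 15.3 and 410 CPM for pericytes, 137, 291, 978 and 609 CPM for endothelium (947 of the 978 being Slc2a1, while the other 6 markers were lower in astrocytes than in cortex), 10.2, 20.1, 4.78 and 651 CPM for neurons, 3.35, 30.4, 11.9 and 640 CPM for microglia, and 0.439, 39.8, 21.4 and 1314 CPM for red blood cells. The sorted groups had lower means than cortex for the neuron, microglia, oligodendrocyte and red blood cell markers. The astrocyte markers summed to 1107 CPM in Ai47 aSMCs, of which Gja1 made up 1093, and to 204 CPM in Ai14 aSMCs, and the smooth muscle markers to 157 CPM in astrocytes. The part of these cell types in the levels of the 9 genes was not tested.

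The shares of all genes called, for the counts of each list that follows, were 24.1% higher and 26.5% lower in Ai47 aSMCs against cortex, 3.97% and 2% in Ai14 aSMCs, and 14.6% and 19.8% in astrocytes. Of the 12 other enzymes of sterol synthesis, 4 were higher and 2 were lower in Ai47 aSMCs than in cortex (median log2 fold change -0.12), and 1 was higher and 4 were lower in astrocytes (median -1.10). In Ai14 aSMCs 0 of 12 were called against cortex, 0 had an unadjusted p under 0.05, and DESeq2 called 0. Lbr, a sterol reductase that also anchors chromatin to the nuclear envelope, had 413.4 to 550.8 CPM in Ai47 aSMCs, 10.8 and 6.85 CPM in Ai14 aSMCs, 0 to 2.63 CPM in astrocytes and 0 to 4.91 CPM in cortex (log2 fold change of Ai47 aSMCs against cortex 7.53). The kinase Pmvk (4.84) and the reductase Tm7sf2 (2.56) were also higher in Ai47 aSMCs, and Nsdhl (-4.74), which acts late in the pathway, was lower.

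Of the 7 regulators of the SREBP pathway, 2 were higher and 2 were lower in Ai47 aSMCs than in cortex (median log2 fold change -0.05), and 2 were higher and 1 was lower in astrocytes (median 1.4). In Ai14 aSMCs 0 of 7 were called, 0 had an unadjusted p under 0.05, and DESeq2 called 1 lower. Insig1, which retains the SREBP complex in the endoplasmic reticulum and is itself induced by it, had 14326 to 22355 CPM in Ai47 aSMCs, 8.40 and 10.4 CPM in Ai14 aSMCs, 20.7 to 87.5 CPM in astrocytes and 7.56 to 31.2 CPM in cortex (log2 fold change of Ai47 aSMCs against cortex 9.72). Its raw counts were 392303 to 396504 in the 6 Ai47 aSMC columns. Mbtps2, the site-2 protease, was also higher in Ai47 aSMCs (3.49), and Srebf1 (-3.13) and Scap (-3.33) were lower. Srebf2, which encodes the SREBP factor that mainly drives sterol genes, had 5.13 to 26.0 CPM in Ai47 aSMCs against 17.05 to 50.04 CPM in cortex and did not pass.

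Among 10 genes of cholesterol uptake and transport, of which 9 were tested, 1 was higher and 3 were lower in Ai47 aSMCs than in cortex, and 2 were lower in astrocytes. In Ai14 aSMCs 0 were called, where 1 was higher by an unadjusted p under 0.05 alone and DESeq2 called 0. Lrp1, a large endocytic receptor, was lower than in cortex in Ai47 aSMCs (log2 fold change -4.29) and in astrocytes (-3.42), and Mylip, a ubiquitin ligase, was lower in astrocytes (-5.96).

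Among 10 genes of efflux, storage and turnover, of which 9 were tested, 3 were higher and 5 were lower in Ai47 aSMCs than in cortex, 1 was lower in Ai14 aSMCs and 1 was higher in astrocytes. Soat1, which esterifies cholesterol for storage, had 690.7 to 1220 CPM in Ai47 aSMCs against 4.15 to 29.2 CPM in cortex (log2 fold change 5.72), and was also higher in astrocytes (3.44). Abcg1, a cholesterol exporter, was higher in Ai47 aSMCs (5.81). Abcg4, a neural exporter, had 0 counts in all 6 Ai47 aSMC libraries against 0 to 48 counts in cortex, and Cyp46a1, which makes the hydroxysterol that leaves the brain, had 2 counts over those 6 libraries against 182 in cortex.

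Fatty acid synthesis, which SREBP factors also drive, was the list with the most calls in 1 direction. Of its 10 genes 9 were lower in Ai47 aSMCs than in cortex (26.5% of all genes), 2 in Ai14 aSMCs (2%) and 3 in astrocytes (19.8%), and 0 were higher in any of the 3, nor at an unadjusted p under 0.05, nor by DESeq2. The median log2 fold change in Ai47 aSMCs was -3.72, where it was -1.57 over the 9 cholesterol enzymes. The desaturase Scd2 had 2.44 to 26.3 CPM in Ai47 aSMCs against 261.6 to 1640.2 CPM in cortex (log2 fold change -6.43), and the desaturase Fads1 0.258 to 0.691 CPM against 85.2 to 353.8 CPM (-9.01). The elongase Elovl6 was lower in astrocytes than in cortex (-7.37). Among 9 genes of the other isoprenoid branches 1 was lower in Ai47 aSMCs than in cortex (Nus1, a subunit of the dolichol-making transferase, -3.92) and 0 were higher, where 1 was higher by an unadjusted p under 0.05 alone and DESeq2 called 1. In astrocytes 2 were higher and 1 was lower (Coq2, of ubiquinone synthesis, -4.50). In Ai14 aSMCs 0 of 9 were called, 0 had an unadjusted p under 0.05, and DESeq2 called 0. Ggps1, which makes geranylgeranyl diphosphate, and Pggt1b, a subunit of the enzyme that attaches it to proteins, averaged 49.6 and 76.1 CPM in Ai47 aSMCs against 28.3 and 18.9 CPM in cortex and did not pass.

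The 9 genes followed each other only weakly over all 17 libraries. Of their 36 pairs 20 had a positive Pearson correlation of log2(CPM + 0.5), with a median of 0.07 and a range of -0.68 to 0.72, over libraries that share groups and differ in depth. Over the 6 cortex libraries 31 of 36 were positive, with a median of 0.54, and Hmgcs1 and Sqle had 0.98, in libraries that also differ in their mitochondrial share. Over the 6 Ai47 aSMC libraries 21 of 36 were positive, with a median of 0.34. The highest were among Sqle, Mvd and Cyp51 (0.93 to 0.96), whose raw counts hardly varied there, so that their CPM mostly follow the library sizes. Outside the list, the genes most like the mean standardised level of the 9 over 17 libraries were Arxes2 (r = 0.91), Tnni1 (0.87), Ccdc120 (0.87), Clcn1 (0.86) and Trim10 (0.86).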

How the data were processed

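Gene expression was measured by bulk RNA-seq in 17 mouse libraries, grouped by their labels into 6 Ai47 aSMC, 2 Ai14 aSMC, 3 astrocyte and 6 cortex samples. The authors deposited 1 matrix of raw counts per gene symbol, with no normalization and 0 columns outside these samples. The submitters' processing notes name Trim Galore 0.6.7, FastQC 0.11.9, MultiQC 1.13, Salmon 1.4.0 and GRCm38, while the study's methods name TopHat and htseq-count for the counts and DESeq2 for the test. The sources used here do not say which account applies to each column. The labels name NuGEN Ovation kits and the methods a TruSeq kit.

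Counts were tested with edgeR 4.0.16 in R 4.3.3 (glmQLFit and glmQLFTest, TMM, filterByExpr with a minimum count of 10), all 17 libraries in 1 fit with 4 groups, over 6 comparisons. P-values were adjusted by Benjamini-Hochberg over 14927 genes, and standard errors were taken from the fold change and the F statistic. DESeq2 1.42.0 was an alternative, as were other scalings, filters and sample sets, each replicate left out, the mean of the Ai47 aSMC columns as 1 library, and a replicate block. The fits were tested on simulated data. Floors are 3 counts and cover counting error only. Correlations used log2(CPM + 0.5).

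The 9 genes, the pathway lists and the marker lists were chosen with earlier results of these data known. All 9 genes were named. Of each pathway list the rule named the 2 genes with the highest mean CPM and the 2 with the largest fold change among those called against cortex, and any other sterol enzyme; other genes named from these lists were picked with their values in view. Some genes of these lists are counted but not reported by name here. The 5 genes most like the 9 were taken by correlation.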

Additional observations from a re-analysis of the deposited data

Results flagged for a closer look

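In 3 of the 18 groups of 4 to 10 samples that were examined (9 genes in Ai47 aSMCs and in cortex), 1 library stood far from the others by Dixon's criterion. Each was an Ai47 aSMC library, and each a different one. Chance gives about 1 in 20 only for normally distributed values, and these CPM were not put on a log scale. The share over all genes was not computed, so no excess among the 9 genes can be read from this. Idi1 had 24.9 CPM in replicate 5 (615 counts), against 1.21 to 1.94 CPM in the other 5. Lss had 27.6 CPM in replicate 1 (526 counts), against 0.255 to 2.10 CPM in the other 5. Dhcr7 had 8.55 CPM in replicate 2 (150 counts), against 0.0809 to 0.995 CPM in the other 5. What set these libraries apart was not tested.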

How the results depend on the processing

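Sqle, higher than in cortex in Ai47 aSMCs and in astrocytes, was called in all 28 alternatives. Over single genes, settings other than leaving out a library kept direction and side of the threshold in 460 values, turned the direction in 29, lost a call in 24 and gained one in 45. Depth limits Mvd, with 0 to 52 counts a library. The cause of each change was not tested, and the 1-library setting also has fewer samples.

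Counts are of the 9 genes called, and not every change is listed. Percentages in parentheses are the shares of all genes tested that were called in that direction in that setting. None is given for fits that leave out 1 library. With the Ai47 aSMC columns as 1 library, Ai47 aSMCs lost their calls against Ai14 aSMCs and astrocytes, and the lower call against cortex. Calls over all genes tested became fewer in each of these directions too. DESeq2 called 2 higher in Ai47 aSMCs against cortex (26.3%), 2 lower in Ai14 aSMCs against cortex (11.2%), and 4 higher (17.9%) and 1 lower (13.5%) in Ai47 aSMCs against Ai14 aSMCs. It also called 4 higher in Ai47 aSMCs against astrocytes (29.8%) and 3 lower in astrocytes against cortex (25.3%). For those 2 comparisons, leaving out 1 library gave 2 to 4 higher and 2 to 3 lower. DESeq2 size factors gave 1 lower in Ai14 aSMCs against cortex (2.69%) and 3 higher in Ai47 aSMCs against Ai14 aSMCs (10.7%). At least 1 CPM in 2 libraries gave 2 higher in Ai47 aSMCs against cortex (25.2%), 1 lower in Ai14 aSMCs against cortex (2.2%), 3 higher in Ai47 aSMCs against Ai14 aSMCs (10.6%) and 1 lower against astrocytes (21.6%). With no filter these were 2 higher in Ai47 aSMCs against cortex (21.5%), 2 higher against Ai14 aSMCs (7.86%) and 1 lower against astrocytes (16.8%). Fits of only the 2 groups gave 2 higher in Ai47 aSMCs against cortex (33.6%), 1 lower in Ai14 aSMCs against cortex (11.4%) and 4 higher in Ai47 aSMCs against Ai14 aSMCs (18.2%). They also gave 1 higher (25.8%) and 1 lower (17.6%) in Ai47 aSMCs against astrocytes and 0 lower in Ai14 aSMCs against astrocytes (0%). Library totals alone gave 6 lower in Ai47 aSMCs against cortex (38.97%) and 1 lower in astrocytes against cortex (13.99%). In Ai47 aSMCs they gave 0 higher (3.58%) and 1 lower (44.24%) against Ai14 aSMCs, and 0 higher (12.28%) and 4 lower (42.51%) against astrocytes. Totals without mitochondrial genes gave 6 lower in Ai47 aSMCs against cortex (54.8%), 0 higher (3.6%) and 3 lower (50.5%) against Ai14 aSMCs, and 0 higher (12.3%) and 4 lower (45.4%) against astrocytes. In 2 settings chosen after seeing the data, only part of the cortex libraries was kept. Cortex replicates 1 to 3 alone gave 1 lower in Ai14 aSMCs against cortex (0.9%). In Ai47 aSMCs they gave 2 higher against Ai14 aSMCs (10.87%) and 1 lower against astrocytes (20.03%). Cortex replicates 4 to 6 alone gave 0 lower in astrocytes against cortex (13.57%) and 1 lower in Ai47 aSMCs against astrocytes (22.03%).

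The following log2 fold changes turned direction. Sqle in Ai14 aSMCs against cortex, at 0.08, was -0.15 with 1 Ai47 aSMC library, -0.37 with DESeq2 and its size factors, -0.13 at 1 CPM, -0.0797 with no filter, -0.18 in the 2 groups and -0.53 with cortex replicates 1 to 3. Sqle in Ai47 aSMCs against astrocytes was -0.0464 with DESeq2, -0.0467 with its size factors, -1.66 with library totals and -1.84 without mitochondrial genes. With library totals, values against astrocytes in Ai47 aSMCs were -0.31 for Hmgcs1 and -0.81 for Lss, against Ai14 aSMCs -0.46 for Mvd, in Ai14 aSMCs against cortex 0.0086 for Fdft1 and 0.0814 for Lss, and in astrocytes against cortex 0.47 for Fdft1. Without mitochondrial genes, Ai47 aSMCs had -0.48 for Hmgcs1 and -0.99 for Lss against astrocytes, -0.23 for Hmgcs1 and -0.71 for Mvd against Ai14 aSMCs, and -0.81 for Cyp51 and -0.88 for Fdps against cortex. Fdps in Ai14 aSMCs against astrocytes was 0.018 in the 2 groups and 0.00298 with cortex replicates 4 to 6, with which Idi1 in Ai14 aSMCs against cortex was 0.19, Hmgcs1 in Ai47 aSMCs against cortex 0.55, and Fdft1 and Idi1 in astrocytes against cortex 0.25 and 0.62.

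Leaving out 1 library gave, in Ai14 aSMCs against astrocytes, 0 to 1 lower, Cyp51 from -0.76 to 0.92, Fdps from -0.68 to 2.33, Hmgcs1 from -0.73 to 0.13 and Idi1 from -1.05 to 0.19. It gave 0 to 1 lower and Sqle from -0.28 to -0.012 in Ai14 aSMCs against cortex, 1 to 3 higher, 0 to 1 lower and Lss from -3.08 to 0.063 in Ai47 aSMCs against Ai14 aSMCs, 1 to 2 lower and Lss from -0.62 to 2.52 in Ai47 aSMCs against astrocytes, and 1 to 2 higher and 1 to 2 lower in Ai47 aSMCs against cortex.

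The replicate block, in the 15 libraries that share numbers, gave 2 lower in Ai47 aSMCs against cortex and 0 lower against astrocytes, where Fdft1 had -2.64 (adjusted p = 0.0619, 1.04e-05 to 0.253 over the alternatives). Of all genes tested, the block called 23.3% lower in Ai47 aSMCs against cortex and 12.6% lower against astrocytes. Same-numbered libraries did not deviate together (r = -0.053 to 0.028), which cannot show whether they came from the same animals. The paper's account of shared cortices for sorted and control samples does not give the matching numbers. No block could be fitted with Ai14 aSMCs, numbered 7 and 8.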
